A study of Mus musculus with 14 samples.

Results

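C2C12 myoblasts kept for 2 days in fetal calf serum (FCS) with an adipogenic cocktail were compared with C2C12 myoblasts kept for the same 2 days in horse serum alone. The groups were taken from the sample labels: the medium called DM2 held 10% FCS, 1 µg/ml insulin, 0.5 mM isobutylmethylxanthine (IBMX), 0.5 µM dexamethasone and 2 µM rosiglitazone, and the medium called DM1 held 2% horse serum and none of these agents. Each group had 2 libraries, so that the comparison rests on 4 of the 14 libraries of the series. Serum type, serum concentration and cocktail all differ between DM2 and DM1, and their parts in a difference cannot be told apart from these 4 libraries. The series also holds another medium, DM3, with 2% horse serum and the same cocktail at the same doses; growth medium with 20% FCS at day 0; and all 3 differentiation media at day 7, with 2 libraries for each medium and day. DM3 against DM1 differs in the cocktail, and DM2 against DM3 differs in serum type and concentration, so their values are set beside those of DM2 against DM1 where they bear on the same genes; the comparisons share libraries and are not independent.

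C2C12 is an established mouse myoblast line that, after serum is lowered, leaves the cell cycle, switches on the myogenic factor Myog and then the genes of the sarcomere, and fuses into myotubes. Dexamethasone activates the glucocorticoid receptor, IBMX blocks phosphodiesterases and so keeps cyclic AMP (cAMP) high, and rosiglitazone activates PPARγ, the nuclear receptor of fat cell differentiation; with insulin they form the usual mixture that turns preadipocytes into adipocytes. Serum mitogens hold myoblasts in the undifferentiated, dividing state.

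The values were estimated read counts per gene from poly(A) RNA of whole cultures. Library totals in the series lay between 21907617 and 29784885 counts, with 23701870 and 24700182 in DM2 and 22233162 and 24788819 in DM1 at day 2. Levels are given as CPM, read counts scaled to one common library size, and 3 counts in a library, taken as the floor, corresponded to 0.120 and 0.115 CPM in DM2 and 0.126 and 0.113 CPM in DM1; intervals and floors cover counting error only, since PCR copies were not marked. The 2 DM2 libraries had a Spearman correlation of 0.993 over genes and the 2 DM1 libraries one of 0.989. DM3 replicate 2 stood apart, with 0.837% of its counts in processed pseudogenes and 17779 genes with a count. That pseudogene share was 3.69% and 3.04% in DM2 and 1.60% and 2.58% in DM1, where 20464 to 20868 genes had a count. DM3 replicate 2, DM1 replicate 1 and day 0 replicate 1 (1.68%) had the lowest shares of the 14 libraries and are called the 3 libraries with few pseudogene counts below. DM1 replicate 1 is thus a library of the comparison itself. Nothing in the labels says that replicates were separate cultures, so p-values reflect only how far libraries of a group differ, and that may be technical spread. The labelled cell type was checked with 8 genes of myoblast identity, all of which were expressed in all 4 libraries. Des, the muscle intermediate filament protein, had 984 and 860.4 CPM in DM2, against 1175 and 1110.1 CPM in DM1. Cdh15, the cadherin of muscle cells, had 218 and 223 CPM in DM2, against 446 and 440.1 CPM in DM1. By the test described below, 3 of the 8 were higher in DM2, Myf5 and Myod1 among them, and 3 were lower.

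Of 15973 genes tested, 2797 (17.5%) were higher and 3493 (21.9%) were lower in DM2 than in DM1 at day 2, by the quasi-likelihood test of edgeR at a Benjamini-Hochberg adjusted p under 0.05. The median log2 fold change over all genes tested was 0.004. At least 2-fold differences made up 825 of the higher and 1205 of the lower genes, and at least 8-fold differences 129 and 219. The largest rises included those of Orm1, Serpina3m, Prg4, Ctla2a and Mt2, and the largest falls those of Tmc3, Wnt7b, Dock8, Dcn and Casq2. Without the first DM1 library the higher genes numbered 1801 and without the second 1791, more than 1.5 times fewer than with both. The plot of the 30 genes with the largest differences shows each library, those of DM3 included. These 30 genes were chosen for the size of their differences and to have no overlap between DM2 and DM1 libraries. Neither the separation of their libraries nor its width is further support. For other genes, separation of the libraries was not compared with its share over all genes tested. Where it is mentioned it describes the values and is no support for a difference. Values in parentheses after the levels of a gene are log2 fold changes of DM2 over DM1 ± SE from the same fit, and genes given with them passed the test unless stated otherwise. Counts of list members that rose or fell are to be read beside the shares of 17.5% and 21.9%. For DM3 against DM1 the shares over all genes tested were 17.6% higher and 19.4% lower, and for DM2 against DM3 6.31% and 9.98%.

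Promoters of 8 genes that the results turn on are shown here because they hold letters bound by factors that the cocktail or the myogenic programme is known to use; this set was chosen after their matches had been seen. Each is the RefSeq window from 250 bases before to 50 bases after the start site, in build GRCm38.p6, read 5′ to 3′ on the gene's own strand. Capitals mark a glucocorticoid response element core (GNACA, 3 bases of any kind, then TGTNC), a muscle E-box (CAGCTG) or an MCAT element (CATTCC, or GGAATG on the other strand), each searched on both strands. The first 3 genes were higher in DM2 than in DM1 and the last 5 were lower. Windows lie at chr8:94178839-94179138 on the plus strand for Mt1, chr12:104406458-104406757 on the plus strand for Serpina3n, chr5:103629354-103629653 on the minus strand for Slc10a6, chr7:83584681-83584980 on the plus strand for Tmc3, chr8:123894726-123895025 on the minus strand for Acta1, chr1:134193198-134193497 on the plus strand for Mybph, chr1:135836084-135836383 on the plus strand for Tnnt2, and chr2:73580289-73580588 on the minus strand for Chrna1.
Mt1: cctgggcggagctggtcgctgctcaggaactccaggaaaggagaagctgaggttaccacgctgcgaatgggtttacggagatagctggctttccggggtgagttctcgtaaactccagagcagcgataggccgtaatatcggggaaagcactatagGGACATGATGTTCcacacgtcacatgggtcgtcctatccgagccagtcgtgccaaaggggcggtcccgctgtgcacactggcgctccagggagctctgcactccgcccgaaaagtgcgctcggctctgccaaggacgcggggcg
Serpina3n: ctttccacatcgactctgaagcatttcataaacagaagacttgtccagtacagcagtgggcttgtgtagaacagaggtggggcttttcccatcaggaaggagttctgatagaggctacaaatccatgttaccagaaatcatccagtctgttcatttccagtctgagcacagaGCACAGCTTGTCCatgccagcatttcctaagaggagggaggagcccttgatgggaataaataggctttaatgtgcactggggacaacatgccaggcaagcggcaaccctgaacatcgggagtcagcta
Slc10a6: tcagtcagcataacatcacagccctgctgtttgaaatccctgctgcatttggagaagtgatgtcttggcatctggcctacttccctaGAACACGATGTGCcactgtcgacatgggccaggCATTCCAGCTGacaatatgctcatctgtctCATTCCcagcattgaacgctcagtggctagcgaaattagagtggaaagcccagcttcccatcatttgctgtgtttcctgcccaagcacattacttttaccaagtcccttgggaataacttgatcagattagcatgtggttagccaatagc
Tmc3: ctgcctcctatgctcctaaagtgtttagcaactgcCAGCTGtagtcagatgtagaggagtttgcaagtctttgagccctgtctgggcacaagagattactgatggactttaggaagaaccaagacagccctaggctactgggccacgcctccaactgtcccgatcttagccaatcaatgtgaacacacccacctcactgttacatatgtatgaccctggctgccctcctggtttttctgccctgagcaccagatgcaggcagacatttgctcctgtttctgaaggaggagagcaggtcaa
Acta1: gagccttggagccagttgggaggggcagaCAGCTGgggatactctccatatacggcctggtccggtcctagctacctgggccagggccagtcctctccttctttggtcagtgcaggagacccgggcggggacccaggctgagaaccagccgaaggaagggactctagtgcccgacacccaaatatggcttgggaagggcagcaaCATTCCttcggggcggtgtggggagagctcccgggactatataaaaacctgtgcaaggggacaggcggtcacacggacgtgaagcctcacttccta
Mybph: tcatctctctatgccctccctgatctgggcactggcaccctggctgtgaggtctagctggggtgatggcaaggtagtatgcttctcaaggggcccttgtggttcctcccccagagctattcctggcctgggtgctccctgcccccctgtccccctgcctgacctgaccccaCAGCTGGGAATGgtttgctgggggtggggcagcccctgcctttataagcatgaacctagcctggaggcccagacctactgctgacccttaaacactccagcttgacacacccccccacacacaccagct
Tnnt2: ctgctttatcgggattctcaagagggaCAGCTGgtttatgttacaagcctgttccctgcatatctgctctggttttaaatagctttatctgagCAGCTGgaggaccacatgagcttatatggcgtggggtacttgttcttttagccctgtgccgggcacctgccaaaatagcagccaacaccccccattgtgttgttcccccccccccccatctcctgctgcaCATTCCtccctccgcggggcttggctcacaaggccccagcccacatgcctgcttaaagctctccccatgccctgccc
Chrna1: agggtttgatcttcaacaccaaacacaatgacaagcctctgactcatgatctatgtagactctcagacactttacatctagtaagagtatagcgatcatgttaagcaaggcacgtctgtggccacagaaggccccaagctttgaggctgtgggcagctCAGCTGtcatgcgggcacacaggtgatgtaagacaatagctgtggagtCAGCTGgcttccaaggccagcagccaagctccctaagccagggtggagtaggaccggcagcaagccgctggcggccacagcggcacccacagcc

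The glucocorticoid core begins at base -94 from the start site in Mt1, at -78 in Serpina3n and at -163 in Slc10a6. It stood in 0.451% of the 27025 RefSeq windows and in 0.308% of the 10390 windows of genes tested here, and in 2 of the 11 windows found for the 15 genes named as most raised. Of the 14 windows of raised glucocorticoid targets, 1 held it. In the Slc10a6 window an E-box at -125 and an MCAT element at -130 share 1 base. The Acta1 window has an E-box at -221 and an MCAT element at -46, the Mybph window has them next to each other at -79 and -73, and the Tnnt2 window has E-boxes at -223 and -157 and an MCAT element at -27. The Chrna1 window has E-boxes at -92 and -44, and the Tmc3 window has 1 at -215. E-boxes stood in 9 of 26 windows of lowered sarcomere genes (34.6%), in 7 of 11 windows of lowered excitation-contraction and junction genes (63.6%), and in 15.2% of the windows of all genes tested. They also stood in 4 of the 11 windows of the 15 most raised genes (36.4%) and in 2 of the 4 windows of raised cAMP targets. E-boxes stood in 2 of the 8 windows of the 15 most lowered genes (25%) and in 1 of the 14 windows of raised glucocorticoid targets. MCAT elements stood in 9 of the 26 sarcomere windows and in 2 of the 11 excitation-contraction and junction windows, against 12% of the windows of all genes tested and 3 of the 11 windows of the most raised genes (27.3%). Of the most lowered genes, 0 of the 8 windows held one. Among raised targets, 1 of the 14 glucocorticoid windows and 1 of the 4 cAMP windows did. The cAMP response element, TGACGTCA, stood in 1 of the 4 windows of raised cAMP targets, that of Dio2, and in 3.23% of the windows of all genes tested. These matches describe letters in the windows and are not evidence that a factor bound there.

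**Figure D1:**
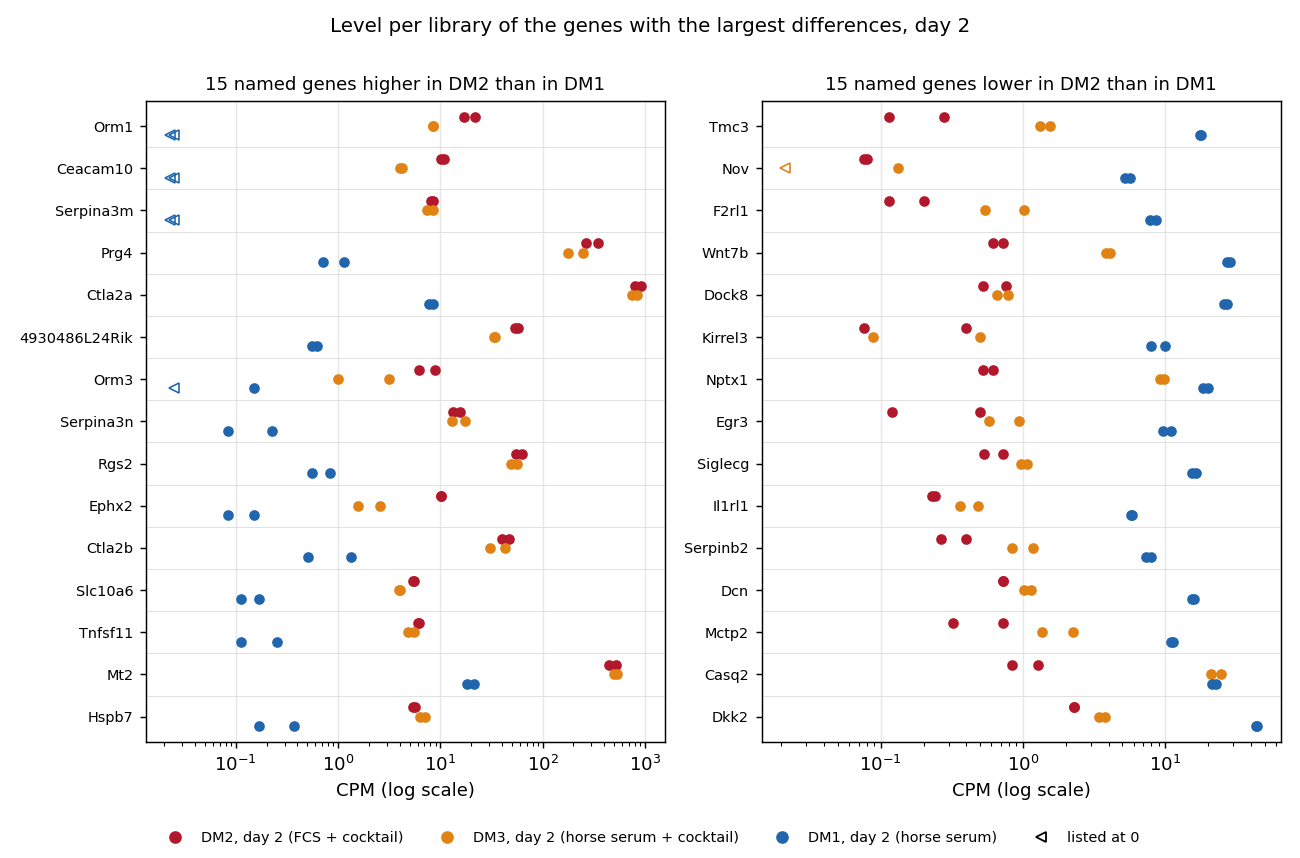
Level of each gene in each library at day 2, in CPM on a log axis, for the 15 genes with the largest rise (left) and the 15 with the largest fall (right) in DM2 against DM1; red points are DM2, orange DM3 and blue DM1, and open triangles mark libraries where the gene was listed at 0. The genes were chosen so that no DM2 library overlaps a DM1 library; Orm1 lies at 22.0 and 16.9 CPM in DM2 and at 0 in DM1, and Tmc3 at 0.280 and 0.115 CPM in DM2 and at 17.5 and 18.0 CPM in DM1.

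Orm1 (orosomucoid 1, an acute-phase plasma protein made mainly by liver; chromosome 4, 63344560 to 63348163, GRCm38) had 22.0 and 16.9 CPM in DM2 and was listed at 0 in both DM1 libraries. It was at least 154-fold higher in DM2, set against a floor of 3 counts in each DM1 library (adjusted p = 1.37e-06, edgeR). Both DM2 libraries were far above that floor. DM3 had 8.46 and 8.41 CPM, and DM2 was higher than DM3 as well (log2 fold change 1.20 ± 0.27, SE, adjusted p = 0.0174). That second difference missed the threshold without DM2 replicate 1 (adjusted p = 0.131) and without DM3 replicate 2 (adjusted p = 0.0918). The neighbouring copies Orm2 and Orm3 share sequence with Orm1, so counts may be split among them. Orm2 was at least 17.3-fold higher in DM2. Orm3 had 8.90 and 6.15 CPM in DM2, against 0 and 0.150 CPM in DM1. Its fitted 90.3-fold rise depended on single DM1 libraries, being 48.4-fold without the first and 1554-fold without the second. In the latter fit the remaining DM1 library had 0 counts.

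Serpina3m and Serpina3n, serine protease inhibitors of the antichymotrypsin cluster on chromosome 12 that rise in inflammation, stood among the most raised genes, with the same caution about near-identical copies. Serpina3m had 8.17 and 8.47 CPM in DM2 and was listed at 0 in both DM1 libraries, a rise of at least 66.1-fold (adjusted p = 1.61e-08). Serpina3n had 15.5 and 13.2 CPM in DM2, against 0.0840 and 0.225 CPM in DM1, an 88.1-fold rise (adjusted p = 2.01e-06) that became 162-fold without DM1 replicate 2. The DM2 libraries of both genes lay close together. Serpina3n had 2 and 6 counts in the DM1 libraries, so that its fold rests on few counts. Hp (haptoglobin, which binds free haemoglobin) had 3.17 and 2.71 CPM in DM2 and was listed at 0 in DM1, at least 23.3-fold higher. C3, the central complement protein, had 0.641 and 1.15 CPM in DM2, against 0.0840 and 0.0750 CPM in DM1, both below the floor (log2 fold change 3.42 ± 0.47, SE). Of 21 acute-phase genes listed, 10 were tested; 8 of these rose, and the one that fell was Cp (ceruloplasmin, a copper-carrying ferroxidase), with 5.93 and 6.91 CPM in DM2, against 84.4 and 83.0 CPM in DM1 (log2 fold change -3.70 ± 0.11, SE, adjusted p = 1.08e-09). The list's median log2 fold change was 6.48, or 4.33 with genes listed at 0 in a medium set to their bound. It lay between 4.54 and 5.34 with any one of the 4 libraries left out, and was 0.00 over the 20 members tested with no filter on low counts, of which 8 rose and 2 fell. Orm1, Orm2, Hp and Serpina3m were at 0 in DM1 and could pass that filter only through other groups, so the 8 of 10 leans on the filter. The CPM of all listed members summed to 68.4 and 59.2 in DM2, against 86.2 and 85.9 in DM1, where Cp made up most of the sum.

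Cysteine protease inhibitors of the Ctla2 cluster on chromosome 13, which resemble the propeptide of cathepsins, were raised together. Ctla2a had 918 and 800.3 CPM in DM2, against 8.48 and 7.73 CPM in DM1, a 106-fold rise (log2 fold change 6.73 ± 0.15, SE, adjusted p = 2.56e-10). In DM3, Ctla2a had 832 and 742 CPM. Ctla2b had 47.2 and 39.6 CPM in DM2, against 0.504 and 1.35 CPM in DM1, a 45.8-fold rise that became 85.4-fold without DM1 replicate 2. The gene 4930486L24Rik of the same cluster had 57.0 and 53.2 CPM in DM2, against 0.630 and 0.563 CPM in DM1 (91.9-fold, adjusted p = 1.52e-07). Reads may be shared among these copies.

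The other strongly raised genes have varied products. Prg4 (lubricin, the lubricating proteoglycan of joint fluid; chromosome 1, 150449412 to 150466165) had 264 and 346 CPM in DM2, against 1.13 and 0.713 CPM in DM1, a 331-fold rise (log2 fold change 8.37 ± 0.40, SE, adjusted p = 8.19e-07). Ceacam10, a secreted member of the carcinoembryonic antigen family, had 10.1 and 10.8 CPM in DM2 and was listed at 0 in DM1, at least 82.8-fold higher (adjusted p = 2e-06). Tnfsf11 (RANKL, the cytokine that drives osteoclast formation) had 6.01 and 6.22 CPM in DM2, against 0.252 and 0.113 CPM in DM1; its 33.2-fold rise became 52.0-fold without DM1 replicate 1. The rule that named these 3 genes required the separation of DM2 from DM1 libraries. Tnfsf11 had 6 and 3 counts in the DM1 libraries. Rgs2, which speeds the shut-off of G protein signals, had 62.8 and 54.9 CPM in DM2, against 0.840 and 0.563 CPM in DM1 (84.0-fold, adjusted p = 2.49e-07). Slc10a6, a transporter of sulfated steroids whose promoter is printed above, had 5.37 and 5.53 CPM in DM2, against 0.168 and 0.113 CPM in DM1 (38.0-fold, adjusted p = 2.29e-07). Hspb7, a small heat shock protein of heart and skeletal muscle, had 5.41 and 5.61 CPM in DM2, against 0.168 and 0.375 CPM in DM1; its 19.7-fold rise became 31.9-fold without DM1 replicate 2. DM2 and DM1 libraries did not overlap for these genes, as the rule that named them required. In the DM1 libraries Slc10a6 had 4 and 3 counts and Hspb7 had 4 and 10.

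Ephx2 (soluble epoxide hydrolase, which breaks down lipid epoxides) differed between DM2 and DM3, whose serum differs in type and concentration, as well as between DM2 and DM1. It had 10.2 and 10.2 CPM in DM2, against 0.0840 and 0.150 CPM in DM1, an 82.9-fold rise (adjusted p = 1.02e-07). That fold rests on 2 and 4 counts in the DM1 libraries. DM3 had 2.55 and 1.58 CPM, so that DM2 exceeded DM3 by a log2 fold change of 2.32 ± 0.24 (SE, adjusted p = 6.51e-05).

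Known targets of the glucocorticoid receptor were among the groups with the most rises. Of 23 listed, 21 were tested; 16 rose and 2 fell in DM2 against DM1, with a median log2 fold change of 2.34 (2.03 with genes listed at 0 set to their bound). In DM3 against DM1, where 17.6% of all genes tested rose and 19.4% fell, 17 of the 21 rose. Tsc22d3 (GILZ, which mediates anti-inflammatory effects of glucocorticoids) had 595 and 560.0 CPM in DM2, against 52.4 and 49.9 CPM in DM1 (log2 fold change 3.50 ± 0.11, SE, adjusted p = 1.03e-09). Fkbp5, a chaperone that dampens the receptor itself, had 272 and 271 CPM in DM2, against 38.8 and 36.9 CPM in DM1 (2.84 ± 0.077, adjusted p = 6.34e-10). Per1, the clock gene with a glucocorticoid-driven promoter, had 188 and 208 CPM in DM2, against 34.2 and 34.9 CPM in DM1 (2.52 ± 0.11). In each of these genes the libraries of a medium lay within a narrow range and the media were far apart.

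The metallothioneins Mt1 and Mt2, zinc-binding proteins induced by metals and glucocorticoids, stand next to each other on chromosome 8. Mt2 had 523 and 443 CPM in DM2, against 18.4 and 21.3 CPM in DM1 (log2 fold change 4.60 ± 0.12, SE, adjusted p = 6.34e-10). Mt1 had 395 and 304 CPM in DM2, against 21.7 and 25.2 CPM in DM1 (3.89 ± 0.14, adjusted p = 4.89e-09). Both DM2 libraries lay above both DM1 libraries for each gene, which for Mt2 the naming rule required. Ddit4 (an inhibitor of mTORC1) had 275 and 263 CPM in DM2, against 44.0 and 48.9 CPM in DM1 (2.53 ± 0.086). Pdk4, which restrains glucose oxidation, had 113 and 122 CPM in DM2, against 22.5 and 24 CPM in DM1 (2.34 ± 0.13). Glul (glutamine synthetase) had 391 and 376 CPM in DM2, against 95.4 and 92.5 CPM in DM1 (2.03 ± 0.072). Hsd11b1, the enzyme that regenerates active glucocorticoid, had 8.29 and 7.90 CPM in DM2, against 1.81 and 1.65 CPM in DM1 (2.23 ± 0.14). These 4 genes had no overlap between the media. Crispld2, a secreted protein of lung development, had 3.45 and 3.78 CPM in DM2, against 0.0420 and 0.150 CPM in DM1; its fold of 34.9 became 77.3 without DM1 replicate 2. Zbtb16, a zinc finger repressor, was listed at 0 in DM1 and at least 3.11-fold higher in DM2. The 2 that fell were Dusp1, a phosphatase of MAP kinases, with 73.1 and 67.5 CPM in DM2, against 152 and 146 CPM in DM1 (-1.08 ± 0.13), and Angptl4, an inhibitor of lipoprotein lipase, with 13.1 and 13.1 CPM in DM2, against 35.5 and 32.2 CPM in DM1 (-1.37 ± 0.15). Their log2 fold changes in DM3 against DM1 were 0.17 and -0.19. Sgk1, a serum- and glucocorticoid-regulated kinase, had a log2 fold change of 0.24 and did not pass the test (adjusted p = 0.117).

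The cAMP targets were divided. Of 18 tested (of 19 listed), 7 rose and 6 fell, beside 17.5% higher and 21.9% lower over all genes tested. The median log2 fold change was 0.01. Pde4b, a phosphodiesterase that degrades cAMP, had 178 and 217 CPM in DM2, against 57.2 and 56.6 CPM in DM1 (1.80 ± 0.10, SE). Sik1, a kinase that feeds back on cAMP signalling, had 223 and 248 CPM in DM2, against 72.6 and 71.1 CPM in DM1 (1.72 ± 0.10). Dio2, which activates thyroid hormone, had 15.1 and 19 CPM in DM2, against 6.38 and 6.49 CPM in DM1 (1.41 ± 0.16), with a log2 fold change of -0.61 in DM3 against DM1. The DM2 libraries of these 3 genes were all above the DM1 libraries. The immediate early genes Fos and Nr4a1, transcription factors that also answer to serum and growth factors, fell. Fos had 1.20 and 1.34 CPM in DM2, against 11.7 and 8.81 CPM in DM1 (-3.01 ± 0.29). Nr4a1 had 5.05 and 3.97 CPM in DM2, against 26.2 and 23.0 CPM in DM1 (-2.45 ± 0.14). Crem, a cAMP-inducible repressor, had a log2 fold change of 0.08 and did not pass the test (adjusted p = 0.728).

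Genes bound by PPARγ or typical of fat cells rose more often than they fell, while several defining products of mature adipocytes were not detected at this depth. Of 31 listed, 19 were tested, and 11 rose and 1 fell (median log2 fold change 0.47); the fall was lost without DM2 replicate 1 or DM1 replicate 2. Adipoq, Lep, Cfd, Plin1 and Cidea were listed at 0 in all 4 libraries. Retn, Cidec and Plin5 had 6, 2 and 3 counts over both DM2 libraries and 0 in DM1. Fabp4, the fatty acid carrier of fat cells and macrophages, had 4.69 and 3.93 CPM in DM2, against 0.126 and 0.113 CPM in DM1 (log2 fold change 5.12 ± 0.43, SE, adjusted p = 2.67e-06), and DM2 exceeded DM3 by 1.44 (adjusted p = 0.0109, or 0.0669 without DM3 replicate 2). Both DM1 values of Fabp4 were at the floor. The lipid droplet protein Plin4 had 39.0 and 45.2 CPM in DM2, against 3.65 and 4.16 CPM in DM1 (3.43 ± 0.25). Plin2, which coats the droplets of most cells, had 357 and 333 CPM in DM2, against 192 and 191 CPM in DM1 (0.85 ± 0.089). Lpl (lipoprotein lipase) had 227 and 227 CPM in DM2, against 62.9 and 69.1 CPM in DM1 (1.78 ± 0.12). Cebpa, a transcription factor of adipocytes, had 24.3 and 20.7 CPM in DM2, against 6.76 and 5.51 CPM in DM1 (1.87 ± 0.22). For each of these genes the DM2 libraries lay above the DM1 libraries. Pparg itself had 23.5 and 23.7 CPM in DM2, against 18.4 and 18.0 CPM in DM1 (0.38 ± 0.13, adjusted p = 0.0333), and the test was no longer passed when any one of the 4 libraries was left out (adjusted p between 0.102 and 0.139).

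Antioxidant enzymes and part of the circadian clock were also raised. In the antioxidant and metallothionein list 13 of 19 rose and 3 fell (median 0.83). Gclc, the catalytic subunit of glutathione synthesis, had 248 and 279 CPM in DM2, against 45.0 and 50.1 CPM in DM1 (2.47 ± 0.12, SE). Slc7a11, which imports cystine for it, had 12.6 and 17.9 CPM in DM2, against 2.73 and 3.53 CPM in DM1 (2.28 ± 0.25), with a log2 fold change of -0.26 in DM3 against DM1. Gsta1, a glutathione transferase whose close copies may share reads, had 59.9 and 51.1 CPM in DM2, against 2.39 and 3.56 CPM in DM1 (4.21 ± 0.29), and it was also higher in DM2 than in DM3, by 2.21 (adjusted p = 0.000418). Txnrd1 (thioredoxin reductase) had 821 and 863 CPM in DM2, against 357 and 367 CPM in DM1 (1.22 ± 0.10). These 4 genes had no overlap between media. The genes that fell included Sod3, the extracellular superoxide dismutase, with 1.64 and 1.37 CPM in DM2, against 8.06 and 7.91 CPM in DM1 (-2.40 ± 0.20). In the clock list 10 of 19 rose and 2 fell (median 0.28); Dbp, an output transcription factor of the clock, had 75.5 and 63.6 CPM in DM2, against 33.6 and 31.7 CPM in DM1 (1.09 ± 0.12), and the nuclear receptor Rora had a log2 fold change of 1.89. Per3 had 14.9 and 18.6 CPM in DM2, against 32.0 and 35.4 CPM in DM1 (-1.01 ± 0.15). With any one of the 4 libraries left out, 1 clock gene fell.

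**Figure D2:**
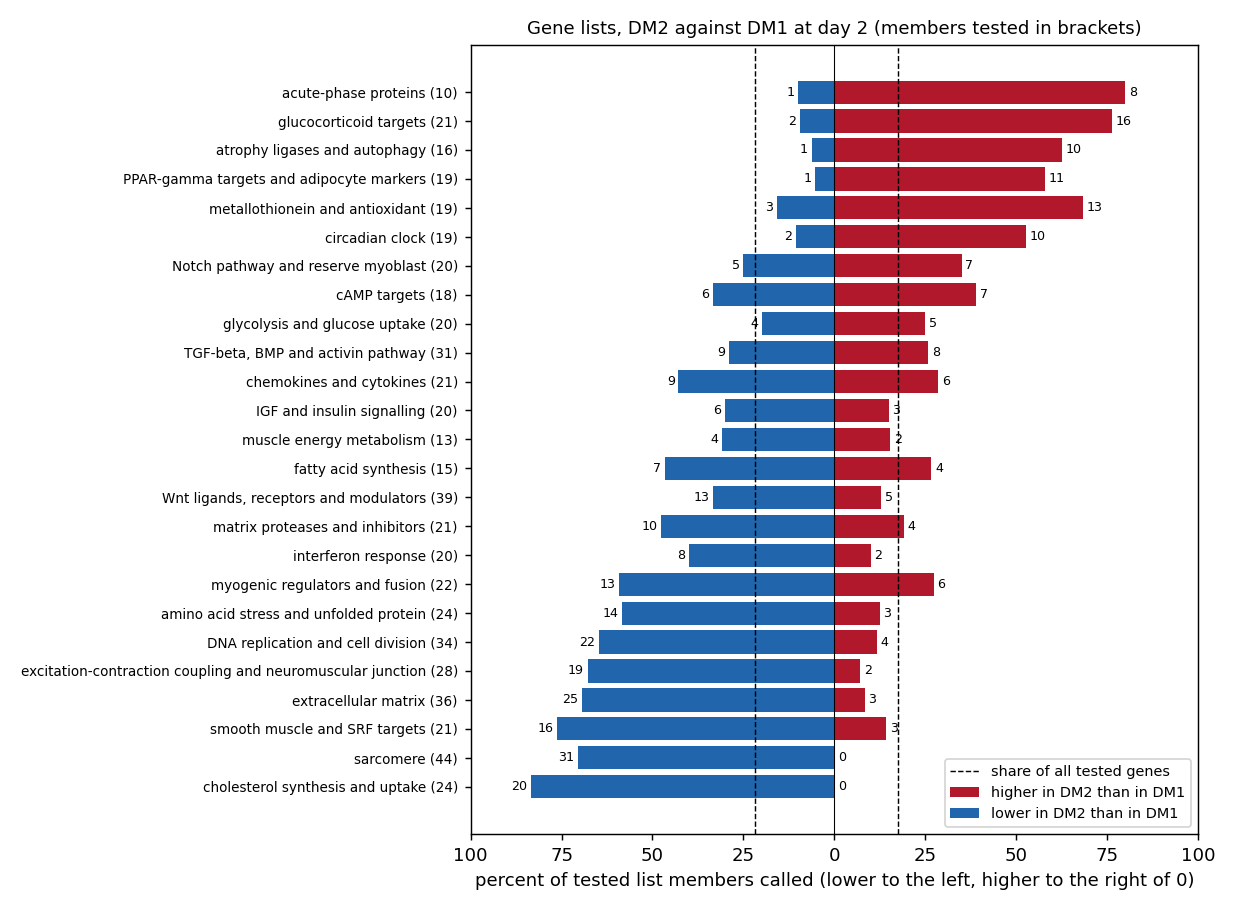
Share of the tested members of each gene list that were higher (red, to the right) or lower (blue, to the left) in DM2 than in DM1 at day 2, in percent, with the number of members at the end of each bar; dashed lines mark the shares over all genes tested, 17.5% higher and 21.9% lower. Glucocorticoid targets (16 of 21) lie far to the right, and cholesterol (20 of 24) and sarcomere genes (31 of 44) far to the left.

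Tmc3 and Wnt7b were among the genes that fell most, and for both DM3 lay between the other media. Tmc3 (chromosome 7, 83584927 to 83625614), a member of the transmembrane channel-like family whose promoter is printed above, had 0.280 and 0.115 CPM in DM2, against 17.5 and 18.0 CPM in DM1. It was 88.3-fold lower in DM2 (log2 fold change -6.46 ± 0.35, SE, adjusted p = 9.68e-08), or 151-fold lower without DM2 replicate 1. The DM2 libraries had 7 and 3 counts of Tmc3, the latter at the floor. DM3 had 1.32 and 1.54 CPM; its log2 fold change against DM1 was -3.62 ± 0.28 and that of DM2 against DM3 was -2.84 ± 0.36 (adjusted p = 0.000234), 7.16-fold lower, or 12.1-fold lower without DM2 replicate 1. Of the other TMC genes, 8 listed and 5 tested in all, Tmc6 had 36.7 and 34.0 CPM in DM2, against 39.6 and 39.8 CPM in DM1 and did not pass the test (log2 fold change -0.17, adjusted p = 0.217).

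Wnt7b (chromosome 15, 85535437 to 85582473), a secreted Wnt ligand, had 0.721 and 0.611 CPM in DM2, against 28.4 and 27.3 CPM in DM1, a 41.6-fold fall (log2 fold change -5.38 ± 0.20, SE, adjusted p = 5.59e-09). DM3 had 3.83 and 4.12 CPM, with log2 fold changes of -2.81 ± 0.17 against DM1 and, for DM2 against DM3, -2.57 ± 0.20 (adjusted p = 6.30e-06). Of 61 Wnt ligands, receptors and modulators 39 were tested, and 5 rose and 13 fell (median log2 fold change -0.26). Over all genes tested 17.5% were higher and 21.9% lower. Other ligands that fell were Wnt10a, with 8.09 and 6.41 CPM in DM2, against 25.5 and 23.8 CPM in DM1 (-1.76 ± 0.14), Wnt10b (log2 fold change -1.33) and Wnt9a (-1.16). Wnt4, by contrast, had 8.21 and 5.08 CPM in DM2, against 1.18 and 0.825 CPM in DM1 (2.73 ± 0.31). The receptor Fzd4 had 46.8 and 59.0 CPM in DM2, against 9.36 and 8.55 CPM in DM1 (2.56 ± 0.11). Lgr6, a receptor for the Wnt-enhancing R-spondins, had 6.33 and 8.59 CPM in DM2, against 52.8 and 59.1 CPM in DM1 (-2.91 ± 0.23). Secreted modulators differed in direction: Notum, which inactivates Wnts, had 5.17 and 5.23 CPM in DM2, against 1.60 and 1.46 CPM in DM1 (1.76 ± 0.21). Dkk2, a ligand of the Wnt co-receptors, had 2.28 and 2.29 CPM in DM2, against 43.6 and 44.1 CPM in DM1, a 19.1-fold fall (adjusted p = 1.56e-08). The Wnt target Wisp1 had 44.2 and 51.6 CPM in DM2, against 246 and 235 CPM in DM1 (-2.33 ± 0.094), whereas Axin2, the common readout of β-catenin signalling, had a log2 fold change of -0.83 and did not pass the test (adjusted p = 0.0887).

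Other genes among the most lowered also have varied products. Dock8, an exchange factor for Cdc42, had 0.521 and 0.763 CPM in DM2, against 27.0 and 25.8 CPM in DM1, a 40.7-fold fall (adjusted p = 1.10e-07). DM3 had 0.661 and 0.788 CPM of it. Nptx1 (neuronal pentraxin 1, a secreted synaptic protein) had 0.521 and 0.611 CPM in DM2, against 19.9 and 18.4 CPM in DM1 (33.6-fold, adjusted p = 3.92e-09). DM3 had 9.25 and 9.81 CPM, with log2 fold changes of -4.06 ± 0.18 for DM2 against DM3 and -1.01 ± 0.14 for DM3 against DM1. Egr3, a growth-factor-induced transcription factor, had 0.120 and 0.496 CPM in DM2, against 11.0 and 9.56 CPM in DM1; its 32.5-fold fall was 20.9-fold without DM2 replicate 1 and 82.2-fold without DM2 replicate 2. Kirrel3, an immunoglobulin-family adhesion protein, had 0.401 and 0.0763 CPM in DM2, against 9.95 and 7.88 CPM in DM1; its 37.0-fold fall was 112-fold and 22.0-fold in the same order. No DM2 library reached a DM1 library in these genes, as the rule that named them required. Egr3 had 3 and 13 counts in the DM2 libraries, and Kirrel3 had 10 and 2.

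Nov (CCN3, a matricellular protein) had 0.0801 and 0.0763 CPM in DM2, against 5.67 and 5.25 CPM in DM1 (65.8-fold lower, adjusted p = 7.31e-06). F2rl1 (the protease-activated receptor PAR2) had 0.200 and 0.115 CPM in DM2, against 7.85 and 8.59 CPM in DM1 (50.9-fold lower, adjusted p = 9.54e-06). Dcn (decorin, a proteoglycan that binds collagen) had 0.721 and 0.725 CPM in DM2, against 15.4 and 16.0 CPM in DM1 (21.6-fold lower, adjusted p = 6.34e-10). Nov lay below the floor in DM2, with 2 and 2 counts, and F2rl1 had 5 and 3 counts there, so that their folds are imprecise. Serpinb2, an inhibitor of plasminogen activators, had 0.401 and 0.267 CPM in DM2, against 7.93 and 7.35 CPM in DM1 (22.6-fold lower). Il1rl1, the receptor for interleukin 33, had 0.240 and 0.229 CPM in DM2, against 5.79 and 5.78 CPM in DM1 (24.2-fold lower). Siglecg, a sialic acid-binding receptor of B cells, had 0.721 and 0.534 CPM in DM2, against 16.5 and 15.5 CPM in DM1 (25.3-fold lower). Mctp2, a membrane protein with calcium-binding C2 domains, had 0.321 and 0.725 CPM in DM2, against 11.3 and 11.0 CPM in DM1; its 20.9-fold fall was 34.2-fold without DM2 replicate 2.

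The myogenic factors Myf5, Myod1 and Myf6 were higher, and Myog and the fusion genes lower, in DM2 than in DM1. Myf5, which marks proliferating myoblasts, had 301 and 277 CPM in DM2, against 57.8 and 51.2 CPM in DM1 (log2 fold change 2.40 ± 0.10, SE, adjusted p = 1.38e-08). Myf6 (MRF4, a factor of later fibre maturation) had 6.41 and 5.27 CPM in DM2, against 0.504 and 0.750 CPM in DM1 (3.20 ± 0.31, adjusted p = 9.25e-06). Myod1, the factor that commits cells to muscle, had 116 and 102 CPM in DM2, against 66.7 and 66.7 CPM in DM1 (0.70 ± 0.16, adjusted p = 0.00552), a rise that missed the threshold without DM2 replicate 1 (adjusted p = 0.0662). The DM2 libraries of all 3 genes were above the DM1 libraries. Myog, which starts terminal differentiation, had 29.2 and 24.7 CPM in DM2, against 47.2 and 39.9 CPM in DM1 (-0.69 ± 0.14, adjusted p = 0.00176). In DM3 it had 204 and 231 CPM, far above both other media, with a log2 fold change of 2.32 ± 0.14 for DM3 against DM1 and -3.01 ± 0.15 for DM2 against DM3. The fusion proteins fell: myomaker (listed as Tmem8c) had 4.45 and 3.47 CPM in DM2, against 28.7 and 27.3 CPM in DM1 (-2.82 ± 0.14). Myomixer (listed as Gm7325) had 2.16 and 1.56 CPM in DM2, against 11.0 and 8.93 CPM in DM1 (-2.42 ± 0.17). Neither overlapped between DM2 and DM1. In the list of myogenic regulators and fusion genes 6 of 22 rose and 13 fell in DM2 against DM1 (median log2 fold change -0.42), and 8 fell without DM1 replicate 1. In DM3 against DM1 13 rose and 2 fell (1 without DM3 replicate 2). In DM2 against DM3, where 6.31% of all genes tested rose and 9.98% fell, 2 rose and 17 fell.

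Sarcomere genes were lower in DM2 than in either horse serum medium. Of 46 listed, 44 were tested; 31 fell in DM2 against DM1, and the other 13 did not pass the test (median log2 fold change -2.21, or -1.51 without DM1 replicate 1, and -1.59 with genes listed at 0 in a medium set to their bound). DM3 against DM1 gave 15 rises and 7 falls (median 0.11), beside 17.6% higher and 19.4% lower over all genes tested. DM2 against DM3 gave 31 falls (median -2.25), beside 9.98% lower over all genes tested. In RNA from whole cultures, fewer cells of a type and less RNA per cell cannot be told apart. Acta1, the skeletal muscle actin, had 15.3 and 11.6 CPM in DM2, against 200.5 and 182 CPM in DM1 (-3.83 ± 0.18, SE, adjusted p = 5.69e-08). Myh3, the embryonic myosin heavy chain, had 5.25 and 4.16 CPM in DM2, against 65.5 and 55.1 CPM in DM1 (-3.68 ± 0.20, adjusted p = 1.77e-07). Both genes were far lower in each DM2 library than in any DM1 library, and DM3 had 221 and 288 CPM of Acta1 and 126 and 157 CPM of Myh3. The fast light chain Mylpf had 16.7 and 11.8 CPM in DM2, against 97.9 and 97.4 CPM in DM1 (-2.78 ± 0.20). Cardiac troponin T (Tnnt2) had 11.7 and 10.3 CPM in DM2, against 76.9 and 78.0 CPM in DM1 (-2.81 ± 0.15). Slow troponin C (Tnnc1) had 6.53 and 3.89 CPM in DM2, against 42.6 and 42.8 CPM in DM1 (-3.03 ± 0.24). Mybph, a myosin-binding protein, had 7.69 and 6.83 CPM in DM2, against 37.2 and 38.8 CPM in DM1 (-2.39 ± 0.14) and rose in DM3 against DM1 (log2 fold change 1.70 ± 0.14). Ttn (titin, the giant spring of the sarcomere) had 146 and 186 CPM in DM2, against 287 and 306 CPM in DM1 (-0.84 ± 0.22, adjusted p = 0.0142); its fall missed the threshold without DM2 replicate 1 (adjusted p = 0.104) and without DM1 replicate 2 (adjusted p = 0.0686). The adult slow and fast myosins Myh7 and Myh1 had 3 counts or fewer over both DM2 libraries. Myh7 had 0 and 3 counts in DM2, against 66 and 43 counts in DM1, and Myh1 had 1 and 0 counts in DM2, against 26 and 7 counts in DM1. By summed counts scaled to library size they were 36.8-fold lower in DM2 for Myh7 (95% interval of the ratio of counts 12.3 to 181) and 33.4-fold lower for Myh1 (5.60 to 1360). The fitted fold of Myh7, 34.5, was 18.7 without DM2 replicate 1, and without DM2 replicate 2 the remaining DM2 library had 0 counts.

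**Figure D3:**
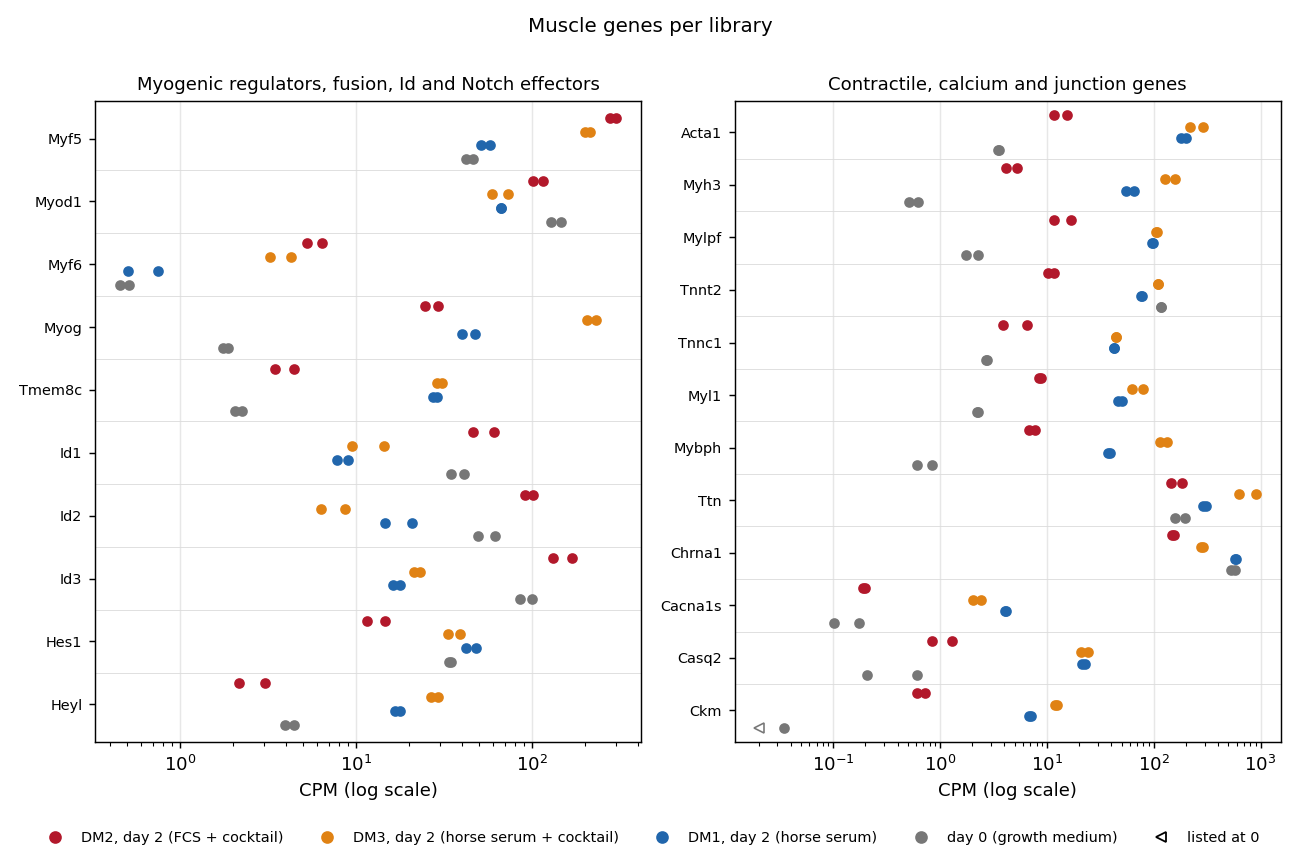
Level in each library, in CPM on log axes, of myogenic regulators, the fusion gene Tmem8c, Id genes and Notch effectors (left) and of contractile, calcium-handling and junction genes (right); red points are DM2, orange DM3 and blue DM1 at day 2, grey points are growth medium at day 0, and the open triangle marks a library listed at 0. Acta1 in DM2, at 15.3 and 11.6 CPM, lies above day 0 and below DM1, while Myf5 in DM2, at 301 and 277 CPM, is higher than in the other groups.

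Calcium handling and neuromuscular junction genes showed the same direction. Of 31 listed, 28 were tested, 2 rose and 19 fell (median log2 fold change -0.84), beside 14 rises (9 without DM3 replicate 2) and 5 falls in DM3 against DM1 and 20 falls in DM2 against DM3. Casq2, the calcium store protein of heart and slow fibres, had 1.28 and 0.840 CPM in DM2, against 22.8 and 21.2 CPM in DM1, a 20.7-fold fall (adjusted p = 1.54e-06), while DM3 had 21.0 and 24.5 CPM. The calcium channel subunit Cacna1s had 0.200 and 0.191 CPM in DM2, against 4.16 and 4.09 CPM in DM1 (-4.36 ± 0.24, SE). Acetylcholine receptor subunits fell: Chrna1 had 148 and 155 CPM in DM2, against 580.5 and 583 CPM in DM1 (-1.94 ± 0.11, adjusted p = 1.32e-07), Chrnb1 had a log2 fold change of -1.80 and Chrnd one of -1.16. Chrna1 was lower in DM3 than in DM1 too (-1.03 ± 0.11). Musk, the receptor kinase that clusters acetylcholine receptors, instead had 76.5 and 104 CPM in DM2, against 23.6 and 22.3 CPM in DM1 (1.97 ± 0.14), with 2.07 in DM3 against DM1. Genes of muscle energy metabolism showed no common direction, with 2 rises and 4 falls among 13 tested, beside 17.5% higher and 21.9% lower over all genes tested. Their median log2 fold change was -0.02, and between -0.90 and 0.07 with any one of the 4 libraries left out. Of those that fell, Ckm (muscle creatine kinase) had 0.721 and 0.611 CPM in DM2, against 6.76 and 7.13 CPM in DM1 (-3.38 ± 0.17). Mb (myoglobin) had a log2 fold change of -2.96.

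The Id proteins, which bind E proteins and so keep myogenic factors from DNA, were higher in DM2. Id3 had 168 and 131 CPM in DM2, against 16.2 and 17.7 CPM in DM1 (log2 fold change 3.14 ± 0.24, SE, adjusted p = 6.50e-06). Id1 had 61.1 and 46.0 CPM in DM2, against 9.03 and 7.80 CPM in DM1 (2.67 ± 0.24). Id2 had 102 and 91.3 CPM in DM2, against 14.7 and 20.8 CPM in DM1 (2.44 ± 0.22). For all 3 genes both DM2 libraries were above both DM1 libraries, and DM2 was also higher than DM3, by log2 fold changes of 2.75 ± 0.23 for Id3, 2.16 ± 0.23 for Id1 and 3.69 ± 0.24 for Id2. In DM3 against DM1, Id2 had a log2 fold change of -1.25 ± 0.23 (adjusted p = 0.00164). Notch effectors differed in direction: Hey1 had 44.6 and 41.9 CPM in DM2, against 15.1 and 13.2 CPM in DM1 (1.61 ± 0.13). Heyl had 2.16 and 3.05 CPM in DM2, against 16.6 and 17.9 CPM in DM1 (-2.72 ± 0.34). Hes1 had 14.5 and 11.6 CPM in DM2, against 48.0 and 41.9 CPM in DM1 (-1.78 ± 0.16). The surface marker Cd34, found on quiescent satellite cells, had 22.8 and 26.1 CPM in DM2, against 113 and 101 CPM in DM1 (-2.13 ± 0.099), and Pax7, the factor of those cells, was at most 0.338 CPM in these libraries. The Notch and reserve cell list had 7 rises and 5 falls among 20 tested (median 0.00), beside 17.5% higher and 21.9% lower over all genes tested.

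Genes of DNA replication were mostly lower in DM2 than in DM1. Of 34 replication and division genes tested, 4 rose and 22 fell in DM2 against DM1 (median log2 fold change -0.51), 27 fell in DM3 against DM1, and 18 rose in DM2 against DM3 (13 without DM3 replicate 2). Ccnd1 (cyclin D1, which starts the cell cycle after mitogens) had 67.6 and 69.4 CPM in DM2, against 307 and 326 CPM in DM1 (log2 fold change -2.21 ± 0.099, SE, adjusted p = 2.24e-08). Mcm3, a subunit of the replicative helicase, had 25.6 and 24.8 CPM in DM2, against 107 and 111 CPM in DM1 (-2.11 ± 0.15). Cdc6, which loads that helicase, had 6.17 and 4.50 CPM in DM2, against 25.6 and 25.6 CPM in DM1 (-2.26 ± 0.15). In all 3 genes DM2 lay below DM1 in every library. Pcna, the sliding clamp, had 58.9 and 51.4 CPM in DM2, against 121 and 110.1 CPM in DM1 (-1.06 ± 0.12). The proliferation marker Mki67 had 199 and 288 CPM in DM2, against 433 and 436 CPM in DM1 (-0.84 ± 0.18). The 4 that rose were Rrm2, which makes deoxynucleotides, with 521 and 518 CPM in DM2, against 197 and 225 CPM in DM1 (1.30 ± 0.11), the mitotic cyclins Ccnb1 (0.38) and Ccnb2 (0.45), and Cenpa, the centromeric histone (0.48), whose rise missed the threshold without DM2 replicate 1 (adjusted p = 0.0546). Cdk1, the mitotic kinase, had a log2 fold change of 0.11 and did not pass the test (adjusted p = 0.336).

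Serum-response and smooth muscle genes were lower in DM2. Of 21 tested, 3 rose and 16 fell (median log2 fold change -0.90); without DM2 replicate 1 or DM1 replicate 1, 1 rose. Egr1, an immediate early transcription factor, had 33.5 and 39.4 CPM in DM2, against 494 and 480.0 CPM in DM1 (-3.74 ± 0.22, SE, adjusted p = 8.36e-07). Acta2 (smooth muscle actin) had 222 and 170.4 CPM in DM2, against 755 and 735 CPM in DM1 (-1.93 ± 0.15). Tagln (transgelin, an actin-binding protein) had 6.41 and 4.16 CPM in DM2, against 48.3 and 41.8 CPM in DM1 (-3.09 ± 0.21). Both were lower in every DM2 library. Cyr61, a matrix protein induced by YAP and serum, had 98.5 and 93.3 CPM in DM2, against 535 and 483 CPM in DM1 (-2.41 ± 0.13). Ankrd1, a stretch-responsive protein of muscle, had 189 and 162 CPM in DM2, against 737 and 664 CPM in DM1 (-2.0 ± 0.12). Mylk, the myosin light chain kinase, rose, with 23.8 and 32.1 CPM in DM2, against 4.87 and 4.91 CPM in DM1 (2.51 ± 0.19).

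Extracellular matrix genes fell as a rule. Of 36 tested, 3 rose and 25 fell (median log2 fold change -1.04), beside 7 rises and 19 falls in DM3 against DM1. Fn1 (fibronectin) had 1769 and 2754 CPM in DM2, against 8726 and 8869.5 CPM in DM1 (-1.96 ± 0.21, SE, adjusted p = 5.38e-05). Col1a1, the main collagen chain of fibrous tissue, had 50.3 and 52.9 CPM in DM2, against 352 and 258 CPM in DM1 (-2.56 ± 0.16). Col8a1, a short-chain collagen, had 12.1 and 11.1 CPM in DM2, against 129.6 and 125 CPM in DM1 (-3.46 ± 0.13). Tnc (tenascin C) had 130.1 and 171 CPM in DM2, against 924 and 892 CPM in DM1 (-2.59 ± 0.16). All 4 were lower in both DM2 libraries than in either DM1 library. Besides Prg4, the genes that rose were Vcan (versican, a large hyaluronan-binding proteoglycan), with 663 and 999 CPM in DM2, against 236 and 242 CPM in DM1 (1.80 ± 0.17), and Fbln1 (0.93). Matrix proteases and their inhibitors gave 4 rises and 10 falls among 21 tested: Adamts1 had 107 and 125 CPM in DM2, against 27.8 and 30.1 CPM in DM1 (2.01 ± 0.11). The membrane-bound Mmp15 had 1.36 and 1.95 CPM in DM2, against 13.0 and 13.5 CPM in DM1 (-3.0 ± 0.17). Plau (urokinase) had 129 and 118 CPM in DM2, against 429.9 and 390.0 CPM in DM1 (-1.73 ± 0.11).

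Genes of cholesterol synthesis and uptake, which SREBP2 switches on when sterol is scarce, were lower in DM2. Of 24 tested, 20 fell and the other 4 did not pass the test (median log2 fold change -0.67). DM3 against DM1 gave 1 rise and 15 falls (median -0.45, or -0.39 without DM3 replicate 2), and DM2 against DM3 gave 9 falls (median -0.32 with or without it). Calls in both comparisons were fewer without that library. Over all genes tested, 19.4% fell in DM3 against DM1 and 9.98% in DM2 against DM3. Idi1, an isoprenoid isomerase, had 48.2 and 50.9 CPM in DM2, against 143 and 130.2 CPM in DM1 (-1.46 ± 0.15, SE), with no overlap between the media. In fatty acid synthesis 4 of 15 rose and 7 fell: Fads2, a desaturase, had 65.0 and 64.7 CPM in DM2, against 151 and 156 CPM in DM1 (-1.24 ± 0.066). Fasn (fatty acid synthase) had 317 and 393 CPM in DM2, against 574 and 556 CPM in DM1 (-0.67 ± 0.13). Gpam, which starts glycerolipid synthesis, had a log2 fold change of 0.96 in the other direction. Scd1, the stearoyl desaturase, had 0.02 and did not pass the test (adjusted p = 0.873).

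Chemokine and cytokine genes went both ways, with 6 rises and 9 falls among 21 tested (median -0.26). Over all genes tested, 17.5% were higher and 21.9% lower. Ccl11 (eotaxin) had 4.65 and 4.16 CPM in DM2, against 0.168 and 0.0375 CPM in DM1 (log2 fold change 5.40 ± 0.47, SE); its fold of 42.1 was 104 without DM1 replicate 1 and 25.5 without DM1 replicate 2. Il6 (interleukin 6) had 2.80 and 2.86 CPM in DM2, against 0.588 and 1.35 CPM in DM1; its fold of 2.89 was 4.79 without DM1 replicate 2. Cxcl12, which attracts cells through Cxcr4, had 5.09 and 5.38 CPM in DM2, against 31.1 and 27.7 CPM in DM1 (-2.49 ± 0.14). Lif, a cytokine of the interleukin 6 family, had 1.92 and 1.64 CPM in DM2, against 9.36 and 10.1 CPM in DM1 (-2.45 ± 0.18). Ptgs2 (cyclooxygenase 2, a gene that glucocorticoids repress) had 14.2 and 17.3 CPM in DM2, against 46.7 and 41.9 CPM in DM1 (-1.49 ± 0.21). The last 3 were lower in DM2 in every library. Among interferon response genes 2 of 20 rose and 8 fell; 4 fell without DM2 replicate 2, and 5 fell without either DM1 library. Ifit2, an interferon-induced antiviral protein, had 5.37 and 6.03 CPM in DM2, against 24.1 and 24 CPM in DM1 (-2.08 ± 0.14).

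The growth factor lists had rises and falls in numbers near those over all genes tested, of which 17.5% rose and 21.9% fell. In the IGF and insulin list 3 of 20 rose and 6 fell, and 3 fell without DM1 replicate 1. Irs1, the adaptor of the insulin receptor, had 28.6 and 36.6 CPM in DM2, against 112 and 110.2 CPM in DM1 (log2 fold change -1.77 ± 0.12, SE). Igf1 had 0.160 and 0.153 CPM in DM2, against 1.39 and 1.01 CPM in DM1 (-2.90 ± 0.59). The imprinted RNA H19 had 5974 and 5617 CPM in DM2, against 2389 and 2271 CPM in DM1 (1.31 ± 0.11), while the neighbouring growth factor gene Igf2 had a log2 fold change of 0.18 and did not pass the test (adjusted p = 0.288), beside 1.22 in DM3 against DM1 (adjusted p = 2.97e-06). In the TGF-β, BMP and activin list 8 of 31 rose and 9 fell, and 5 rose without DM2 replicate 1. Grem1, a secreted BMP antagonist, had 23.4 and 23.8 CPM in DM2, against 125 and 125 CPM in DM1 (-2.41 ± 0.19). Inhbb, a subunit of activin B, had 19.6 and 17.6 CPM in DM2, against 90.9 and 84.8 CPM in DM1 (-2.24 ± 0.10). Tgfbr3 (betaglycan, a TGF-β co-receptor) had 50.4 and 58.4 CPM in DM2, against 14.4 and 13.1 CPM in DM1 (1.99 ± 0.12).

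Among genes of amino acid stress and the unfolded protein response 3 of 24 rose and 14 fell; 8 fell without DM2 replicate 2 and 9 without DM1 replicate 2. Atf4, the transcription factor of that response, had 237 and 189.9 CPM in DM2, against 373 and 365 CPM in DM1 (log2 fold change -0.79 ± 0.12, SE). Atf3, a stress-induced transcription factor, had 7.49 and 6.22 CPM in DM2, against 28.7 and 26.5 CPM in DM1 (-2.01 ± 0.14). Glycolysis and glucose uptake genes gave 5 rises and 4 falls among 20 tested, near the shares over all genes tested (17.5% higher and 21.9% lower). Pfkfb3, which makes the activator of phosphofructokinase, had a log2 fold change of 1.42, and Txnip, which restrains glucose uptake, had 517 and 578 CPM in DM2, against 180.2 and 209 CPM in DM1 (1.49 ± 0.14). Gapdh, whose reads may be shared with pseudogene copies, had 540.0 and 476 CPM in DM2, against 1337 and 387 CPM in DM1, so that its DM1 libraries lay on both sides of DM2. In the list of atrophy ligases and autophagy genes 10 of 16 rose (median 0.37): the ubiquitin ligase Cblb had 87.8 and 108 CPM in DM2, against 25.4 and 25.4 CPM in DM1 (1.95 ± 0.11). Fbxo32 (atrogin-1) had 131 and 157 CPM in DM2, against 73.8 and 73.1 CPM in DM1 (0.97 ± 0.11), whereas Trim63 (MuRF1) had a log2 fold change of -0.06 and did not pass the test (adjusted p = 0.910).

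Markers of leukocytes, endothelium and epithelium were low, and the larger sum of cartilage and bone cell markers came mostly from Spp1. The 11 macrophage and leukocyte markers summed to 8.29 and 8.74 CPM in DM2, against 11.5 and 11.7 CPM in DM1, with Adgre1 and Cd3e listed at 0 in all 4 libraries; 2 were tested, of which Cd68 rose (but not with any one of the 4 libraries left out, adjusted p between 0.0505 and 0.0888) and Cd14 fell. The 10 endothelial markers summed to 1.24 and 2.48 CPM in DM2, against 3.19 and 4.31 CPM in DM1, with Emcn and Tie1 listed at 0; 2 of the 5 tested fell. The 9 epithelial markers summed to 13.3 and 9.89 CPM in DM2, against 16.6 and 16.7 CPM in DM1, and 1 of the 4 tested fell. The 12 chondrocyte and osteoblast markers summed to 1350 and 1339 CPM in DM2, against 1980 and 2591 CPM in DM1. Spp1 (osteopontin) made up most of that sum, with 1209 and 1174 CPM in DM2, against 1838 and 2437 CPM in DM1, while Ibsp was listed at 0 in all 4 libraries. Acan, Col2a1, Col10a1 and Bglap had 0, 10, 1 and 3 counts over both DM2 libraries, against 1, 3, 11 and 8 counts in DM1. Of the 12, 5 were tested, of which 2 rose (1 with any one of the 4 libraries left out) and 2 fell (1 without either DM2 library). Of the 8 myoblast identity genes 3 rose and 3 fell. The part of other cell types in the differences was not tested.

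The same media were also compared at day 7, in 4 other libraries, where 26.5% of all genes tested were higher and 31.4% were lower in DM2 than in DM1. Of the genes called there, 45.8% were higher, and 29.3% were with library totals in place of the scaling used, which moved the median log2 fold change of all genes to -0.265. Of the genes higher in DM2 at day 2, 935 (33.4%) were higher at day 7 too, which is 22.1% of the day 7 genes, and 973 (34.8%) were lower at day 7. Of the genes lower at day 2, 1625 (46.5%) were lower at day 7 as well, which is 32.4% of the day 7 genes, and 990 (28.3%) were higher. The difference between days, tested as the interaction of medium and day, was called for 23% of all genes tested with a more positive and for 26% with a more negative log2 fold change at day 7 than at day 2, and the first made up 47% of the calls, or 33.3% with library totals. Tmc3 and Wnt7b were low in DM2 at day 7 as well: Tmc3 had 0.151 and 0.117 CPM in DM2 at day 7, against 5.06 and 3.67 CPM in DM1, and Wnt7b 0.0753 and 0.195 CPM in DM2, against 14.8 and 16.4 CPM in DM1. For Tmc3 the change between days did not pass the test (log2 1.48, adjusted p = 0.0948, or 0.0394 without DM2 replicate 1 of day 2). Orm1 had 36.7 and 35.1 CPM in DM2 at day 7 and 10.9 and 6.14 CPM in DM1, where it had been listed at 0 at day 2.

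Other genes that rose at day 2 were lower in DM2 than in DM1 at day 7. Ctla2b had 36.1 and 31.6 CPM in DM2 at day 7, against 109 and 75.3 CPM in DM1 (log2 fold change -1.45 ± 0.28, SE, adjusted p = 0.00201). Its log2 fold change differed by -6.96 between days (adjusted p = 4.56e-06), or by -7.86 without DM1 replicate 2 of day 2. Serpina3m had 26.1 and 23.5 CPM in DM2, against 61.6 and 59.0 CPM in DM1 (-1.28 ± 0.14). Hspb7 had 0.753 and 0.895 CPM in DM2, against 21.8 and 32.5 CPM in DM1 (-5.04 ± 0.33; between days -9.33, adjusted p = 1.18e-07, or -10.03 without DM1 replicate 2 of day 2). Mt2 stayed higher in DM2, with 1959 and 2016 CPM, against 1066 and 1212 CPM in DM1 (0.80 ± 0.10). Of the glucocorticoid targets 7 of 21 were higher and 11 lower at day 7, and the difference between days was negative for 15. Replication and division genes went the other way, with 26 of 34 higher and 5 lower in DM2 at day 7; Mcm3 had 61.8 and 62.6 CPM in DM2, against 7.30 and 4.72 CPM in DM1 (3.36 ± 0.17). Sarcomere genes gave 31 falls, with 2 rises, and cholesterol genes 17 falls, with 3 rises. Amino acid stress genes, of which 3 rose at day 2, gave 23 rises of 24 at day 7.

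**Figure D4:**
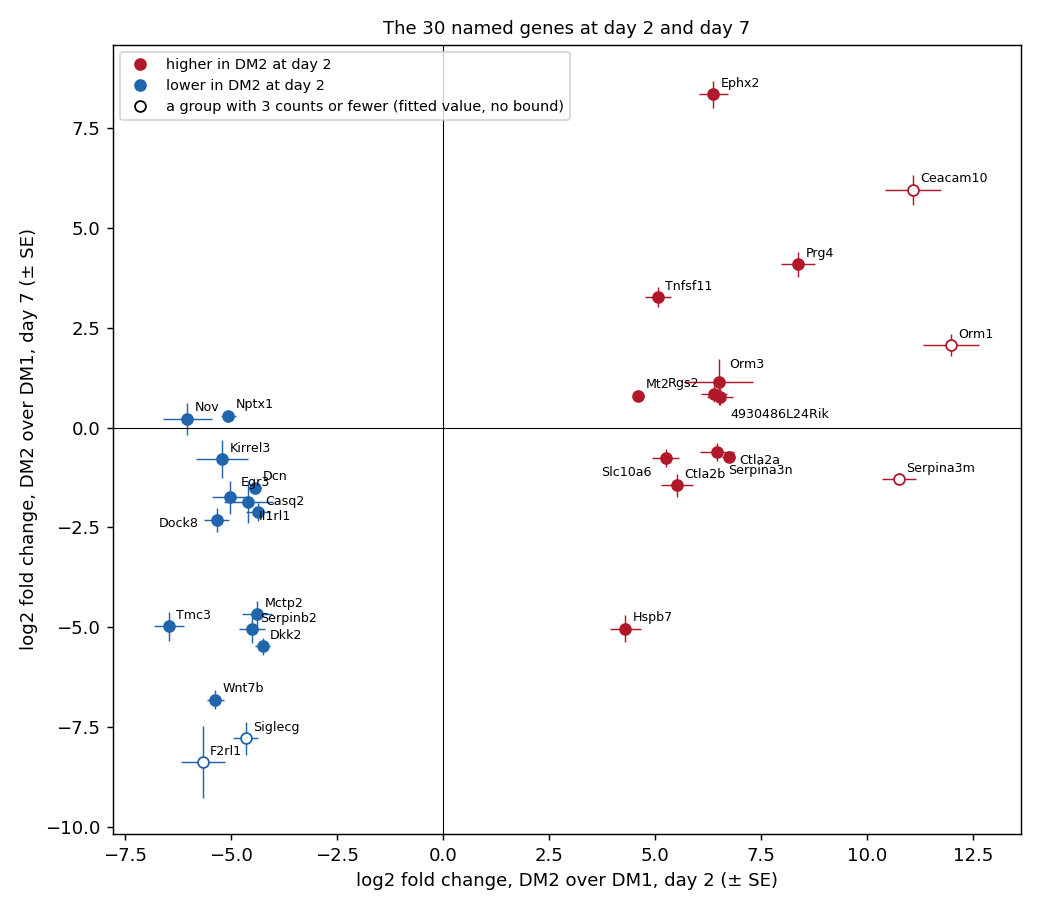
Log2 fold change of DM2 over DM1 at day 2 (horizontal axis) and at day 7 (vertical axis) for the 30 genes named at day 2, with standard errors as bars; red marks genes higher and blue genes lower in DM2 at day 2, and open points have a group with 3 counts or fewer, so that their fitted value is no bound. Wnt7b lies at -5.38 and -6.81, Ctla2b at 5.52 and -1.45, and Hspb7 at 4.30 and -5.04.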

How the data were processed

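RNA-seq counts of 14 C2C12 libraries were used, all from 1 table deposited by the authors, in which every value column was matched to a sample by its label (0 columns unmatched). Libraries were stranded and made from poly(A) RNA, per the labels' protocols. The submitters' processing notes name STAR 2.5.1b, RSEM 1.2.31 and build GRCm38.p5, without their settings. The deposited values are expected counts per gene, not scaled between libraries; such estimates can divide reads among similar gene copies. Expected counts were rounded to whole numbers for the tests.

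Tests used edgeR 4.0.16 in R 4.3.3: TMM scaling, its filterByExpr filter, 1 robust quasi-likelihood model of all 14 libraries in 7 groups, and Benjamini-Hochberg adjustment over the 15973 genes tested, with calls at an adjusted p under 0.05. SE was derived from the log2 fold change and the F statistic of its test. Groups came from the labels; 2 libraries a group limit the precision. Named genes are the 15 largest rises and 15 largest falls among called genes with a mean of at least 5 CPM in the higher medium and no overlap between media, the markers Orm1, Wnt7b and Tmc3, members of 31 gene lists, and the 5 largest differences between days in each direction. Members and lists were chosen with earlier results of these data known. Of 706 listed symbols 590 were tested. Bounds for genes at 0 in a medium use a floor of 3 counts in each library, at the higher of the 2 floors. Gene coordinates are from Gencode on GRCm38, and promoters from RefSeq on GRCm38.p6; of the 30 genes named at day 2, 19 had a window. Alternatives were other scalings, no filter, DESeq2 1.42.0, a replicate block, only the 4 libraries, and each library left out; leaving out the 3 libraries with few pseudogene counts, and the list counts without DM3 replicate 2, were chosen after seeing the data. The test scripts were checked on simulated data. Some genes of the cholesterol list are counted in it but not reported here by name.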

Additional observations from a re-analysis of the deposited data

Results flagged for a closer look

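The DM2 to DM1 difference changed between day 2 and day 7 by the test of the interaction of medium and day in edgeR, which was called for 3678 genes in the positive direction and 4152 in the negative. Of the 30 genes named at day 2, 26 were among them.

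Among genes higher in DM2 at day 2, the log2 fold change at day 7 minus that at day 2 was -4.28 for Prg4, -7.47 for Ctla2a, -6.96 for Ctla2b, -5.75 for 4930486L24Rik, -5.35 for Orm3 and -7.07 for Serpina3n. It was -5.54 for Rgs2, -6.01 for Slc10a6, -1.79 for Tnfsf11, -3.80 for Mt2 and -9.33 for Hspb7. At day 7 Prg4, Tnfsf11, Rgs2, Mt2 and 4930486L24Rik were still higher in DM2, by log2 fold changes of 4.09, 3.27, 0.85, 0.80 and 0.78. Ctla2a, Ctla2b, Serpina3n, Slc10a6 and Hspb7 were lower in DM2 at day 7, and Orm3 did not pass the test. The day 7 call of Serpina3n in edgeR (log2 fold change -0.61, adjusted p = 0.0387) was not stable. It was lost with the size factors of DESeq2 (0.0548), with no filter on low counts (0.167) and with the replicate number as a block (0.0669). For Slc10a6 the day 7 log2 fold change of -0.76 was -0.57 without DM1 replicate 2 and -0.62 without DM2 replicate 2 of that day. Mean Ctla2a was 8.10 CPM in DM1 at day 2 and 1402.5 CPM at day 7, against 859 and 838 CPM in DM2. Some of the differences between days rested on single DM1 libraries of day 2: without replicate 2 the difference was -7.86 for Ctla2b, -7.94 for Serpina3n, -10.03 for Hspb7 and -9.46 for Orm3, whose remaining DM1 library of that day had 0 counts, and without replicate 1 it was -4.45 for Orm3 and -2.43 for Tnfsf11. Ephx2 differed by 1.98 in the other direction (adjusted p = 0.0409), and this call was lost without either DM1 library of day 2 (adjusted p = 0.0511 and 0.363), without DM1 replicate 1 of day 7 (0.209), without DM2 replicate 2 of day 7 (0.0566), with library totals alone (0.0689) and with no filter on low counts (0.0602). Without DM1 replicate 2 of day 7 the difference for Ephx2 was 2.86, and without replicate 1 it was 1.38. For Orm1 (adjusted p = 1.68e-05), Ceacam10 (0.00633) and Serpina3m (1.46e-08), which were listed at 0 in DM1 at day 2, only the adjusted p of the day difference is given; that of Ceacam10 was 0.0772 without DM1 replicate 1 of day 7.

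Among genes lower in DM2 at day 2, the difference was 6.27 for Nov, 5.37 for Nptx1, 4.42 for Kirrel3, 3.28 for Egr3, 3.03 for Dock8, 2.93 for Dcn, 2.73 for Il1rl1 and 2.26 for Casq2. Without DM2 replicate 1 of day 2 it was 6.02 for Kirrel3 and 2.64 for Egr3, and without DM2 replicate 2 of day 2 it was 3.67 for Kirrel3 and 4.62 for Egr3. For Dock8 it was 2.37 without DM2 replicate 1 of day 7. The call for Il1rl1 was lost without DM2 replicate 1 of day 7 (adjusted p = 0.058), and its difference was 3.70 without DM1 replicate 2 of day 7. Negative values were those of Wnt7b, -1.44, and Dkk2, -1.23, and that of Wnt7b was lost without DM2 replicate 1 of day 2 (adjusted p = 0.0742) or of day 7 (0.244) and with DESeq2 (0.0644). Without DM2 replicate 2 of day 7 the difference for Wnt7b was -2.23. Siglecg had 3 counts or fewer in a group, and only its adjusted p, 0.000722, is given.

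The genes with the largest differences between days included Txnip, which restrains glucose uptake, with 1.20 and 1.40 CPM in DM2 and 681 and 818 CPM in DM1 at day 7 and 517 and 578 CPM in DM2, against 180.2 and 209 CPM in DM1 at day 2, a difference of -10.66. F5, a coagulation factor, had 24.1 and 19.8 CPM in DM2 and 0.285 and 0.292 CPM in DM1 at day 7 and 0.481 and 0.916 CPM in DM2, against 1.51 and 1.20 CPM in DM1 at day 2, a difference of 7.17. Its lower level in DM2 at day 2 passed the test (adjusted p = 0.027), but not with DESeq2 (0.0735), with only the 4 libraries (0.115), without the 3 libraries with few pseudogene counts (0.147), without DM1 replicate 1 (0.152) or without DM2 replicate 1 (0.194). For genes with 3 counts or fewer in a group the adjusted p was 0.000293 for Acox2, 3.57e-05 for Cd200r4, 0.000236 for Crocc2, 0.00175 for Try5, 1.2e-05 for Zxda and 0.0238 for the pseudogene Gm5537. Try5 lost its call without DM1 replicate 2 of day 2 (adjusted p = 0.961), and Gm5537 without DM1 replicate 1 of day 2 (0.0544), without DM2 replicate 1 of day 2 (0.0529), without DM1 replicate 2 of day 7 (0.0573) without either DM2 library of day 7 (0.0583 and 0.0592) or without the 3 libraries with few pseudogene counts (0.0856).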

How the results depend on the processing

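With library totals in place of TMM scaling, the genes higher in DM2 at day 7 numbered 2763 of 9442 called (29.3%, against 45.8% of 9238 as reported) and the median log2 fold change of all genes was -0.265 (-0.013 as reported); the share of positive day differences was 33.3% (47% as reported), with a median of -0.266 (-0.036 as reported), and the cause was not tested. Leaving out each library in turn gave 1791 to 2302 genes higher and 2530 to 3016 lower at day 2, 3469 to 3737 higher and 4086 to 4386 lower at day 7, and 3224 to 3680 positive and 3582 to 3792 negative differences between days, with fewer libraries fitted. With the replicate number as a block the counts were 2751 higher and 3479 lower at day 2, 4203 and 4943 at day 7, and 3683 positive and 4069 negative between days; of the day 2 genes followed, 1 lost its call, Smad6 (adjusted p = 0.0519). Deviations of same-numbered libraries correlated by 0.048 for DM2 and DM1 at day 2 and -0.060 at day 7, by 0.052 for DM2 and DM3 and -0.432 for DM3 and DM1 at day 2, and by 0.518 and -0.629 for day 0 with DM1 and with DM3 at day 2, the groups that hold the 3 libraries with few pseudogene counts; the numbers are not shown to pair the libraries. At day 2 the higher and lower counts were 2501 and 3277 with DESeq2, 2644 and 3169 without the filter, and 2486 and 2969 with only the 4 libraries. Leaving out the 3 libraries with few pseudogene counts left DM1 at day 2 with replicate 2 only, and the median log2 fold change was 0.005. Of 238 called genes followed at day 2, 218 kept their call and direction in every alternative and none turned; Crocc2 lost its day 2 call without DM1 replicate 2 (adjusted p = 0.072). The IGF and insulin list had 5 rises with DESeq2 (3 as reported), the acute-phase list 2 falls with no filter, with only the 4 libraries or without the 3 libraries (1 as reported), and the median of the cAMP list turned negative in 4 alternatives (lowest -0.08). Depth limits genes near 0.1 CPM, where 3 counts set the floor.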
